A study of Rattus norvegicus with 6 samples.

Results

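The genes described here mark macrophages and innate immune activity. They were chosen by name as 34 genes, and every non-control probe of the array whose gene name was one of them was taken, with the older names Emr1 (for Adgre1) and Lyz (for Lyz2) accepted. Of the 34 genes, 30 had a probe, and 28 had a probe that passed the filter on dim probes, out of 26236 named features tested. The 28 genes were read by 37 of 41 probes that passed. Ccl4 and Ccr2 had a probe that did not pass, and Fcer1g, C1qc, Msr1 and Spi1 had no probe under this rule.

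The samples were kidneys of the Han:SPRD rat, in which the Cy allele of Anks6 causes an inherited polycystic kidney disease. Left-kidney RNA was pooled by genotype from rats of 3 and 7 days of age, with +/+ as wild type, Cy/+ carrying 1 mutant allele and Cy/Cy carrying 2. Each of 6 arrays carried 1 such pool in Cy5 and a +/+ pool of the same age in Cy3, with no dye swap, so each genotype had n = 2 arrays, 1 per age. The number of animals per pool is not given in the sources used here. The p-values therefore rest on spread between arrays and not between animals. In the tests of ratios this is the spread between the 3-day and the 7-day array within a genotype, which lay on different slides. This spread mixes age, slide and technical differences, so the n = 2 arrays are not replicates of 1 condition. It was pooled over the genotypes of a fit, and limma moderated it toward the spread of all features. In the mutant fit it had 2 residual degrees of freedom, against 4.57 from the other features. A member thus has the same SE in Cy/+ and in Cy/Cy. A ratio that differs between the ages in either genotype widens the SE of both.

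Macrophages enter the kidney before birth, stay as resident cells through life, and multiply or arrive from blood in injury and in cystic disease. Their growth and survival depend on the receptor Csf1r and its ligand Csf1. They take up debris through scavenger receptors, sense microbial products through Cd14 and toll-like receptors, degrade what they engulf with lysozyme and cathepsins, and make much of the complement component C1q in tissues. Tubule cells can also make some of these products, among them C3, Ccl2, Lgals3, Cd14 and Tlr4.

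Both arrays labelled +/+ went against their label as kidney compared with kidney. Between the Cy5 and Cy3 channels of these arrays, 12 of 12 kidney tubule genes were lower in Cy5 (median log2 ratio -2.95) and 10 of 10 liver genes were higher (median 4.74), as were 7 of 7 skeletal muscle genes (median 4.12). The standard deviation of the log2 ratio over features was 1.13 and 0.97 on these arrays, 0.32 and 0.24 on the Cy/+ arrays, and 0.18 and 0.16 on the Cy/Cy arrays. On the 6 arrays 65% to 70% of spots passed the scanner software's background flag in Cy3 and 66.8% to 74.8% in Cy5. The arrays labelled +/+ were kept out of the tests of Cy/+ and Cy/Cy, and their own ratios are given under that label. All arrays of an age shared 1 slide, and each genotype had 1 fixed position, so age and slide, and genotype and position, cannot be told apart.

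Probes of 5 of the genes that were lower at 7 days than at 3 days, in the comparison of ages that follows, are shown. Each is a 60-base oligonucleotide as the array files give it, printed 5′ to 3′ in lower case. The Ctss and Cd14 probes shown are the second of the 2 probes of each gene. The levels and calls of these 2 genes come from the brighter probe, which is not shown.
Lyz2: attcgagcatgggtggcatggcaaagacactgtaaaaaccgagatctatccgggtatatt
C1qa: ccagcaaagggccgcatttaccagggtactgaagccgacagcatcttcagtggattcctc
Ctss: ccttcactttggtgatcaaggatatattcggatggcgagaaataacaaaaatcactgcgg
Itgam: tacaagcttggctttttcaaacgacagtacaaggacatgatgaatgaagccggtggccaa
Cd14: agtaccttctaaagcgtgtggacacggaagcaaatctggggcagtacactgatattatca

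Lysozyme has near-identical copies in rodents, so the Lyz2 signal may include another copy. In the rn3 coordinates of the array files, the Lyz2 probe spanned chr7:56629170-56629966 and the brightest probe of Ctss lay at chr2:190429437-190429496. The C1qa probe shown lay at chr5:155672617-155672676. Probe accessions matched a RefSeq gene for 32 of the 41 probes, and all 32 led to the symbol of the intended member.

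PU.1, the product of Spi1, is the factor that directs macrophage gene expression and binds purine-rich sites that contain GAGGAA. Promoter sequence was at hand in RefSeq (build GRCr8) for 22 members, and the 250 bases before the start site were searched on both strands. GAGGAA was found in 14 of the 22 (63.6%), against 23.3% of 33469 promoters of the same length. A pair of GAAA runs with 2 bases between them, the core of interferon response elements, was found in 4 of 22 (18.2%, against 3.41% of all), namely Adgre1, Ctss, Cybb and Ncf1. GGG and TTTCC with 2 bases between them, a form of the NF-kB site, was found in 1 of 22 (4.55%, against 1.3%), Cd74. A match is a description of letters and not a bound site.

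Among the 8 members lower at 7 days, 6 had GAGGAA in this window and C1qa and Cd163 did not. The 100 bases before the start site are shown for the 5 of them with the hexamer inside that stretch, each on the strand of its gene, with GAGGAA or its reverse complement TTCCTC in capitals. They lie at chr2:185775296-185775395 (Ctss, plus strand), chr7:54798012-54798111 (Lyz2, minus strand), chr10:54882442-54882541 (Cd68, minus strand), chr18:56527106-56527205 (Cd74, plus strand) and chr1:192089492-192089591 (Itgam, plus strand).
Ctss: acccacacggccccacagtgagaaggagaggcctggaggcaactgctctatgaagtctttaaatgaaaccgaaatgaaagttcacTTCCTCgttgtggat
Lyz2: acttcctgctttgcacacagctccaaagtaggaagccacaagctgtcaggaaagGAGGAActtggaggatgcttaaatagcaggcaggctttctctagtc
Cd68: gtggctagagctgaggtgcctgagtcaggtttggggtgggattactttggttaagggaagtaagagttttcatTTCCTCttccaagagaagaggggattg
Cd74: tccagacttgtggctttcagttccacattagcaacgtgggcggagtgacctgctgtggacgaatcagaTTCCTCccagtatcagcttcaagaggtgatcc
Itgam: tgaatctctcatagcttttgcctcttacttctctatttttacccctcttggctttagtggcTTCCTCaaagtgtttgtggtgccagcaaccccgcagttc

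The hexamer began at base -15 in Ctss, -27 in Cd68, -32 in Cd74, -39 in Itgam and -46 in Lyz2, counted back from the start site.

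The change from 3 to 7 days was read in 3 RNA pools at each age, the +/+ reference (the mean of 3 Cy3 hybridisations), Cy/+ and Cy/Cy. The Cy/+ and Cy/Cy values came from arrays that also gave Cy3 values of the reference, and all arrays of an age shared 1 slide. The 3 pools are thus not independent replicates of an age, and the SE and adjusted p of this fit may be too small. Of 28 members, 8 were lower at 7 days and 0 were higher (limma with the pool as a block, Benjamini-Hochberg adjusted over all features, threshold 0.05). Over all features 7.74% were called, 3.48% lower and 4.26% higher. The median log2 change of the members was -0.35, against 0.01 for all features. In whole-kidney RNA, fewer cells of a type and less RNA per cell cannot be told apart. Without the 3-day Cy/Cy value no member was called and only 77 features were, against 2030 in the full fit, and without the 7-day Cy/Cy value 3 members were called. The count was 0 with the software's processed signals and from the mutant pools alone, and 3 with no pool block.

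Lyz2, which digests bacterial cell walls, had log2 levels of 10.85 in the reference, 11.48 in Cy/+ and 10.98 in Cy/Cy at 3 days. At 7 days its levels were 10.12, 10.34 and 10.01 in the same order. No 7-day pool reached the lowest 3-day pool, and the fitted change was -0.95 ± 0.10 (SE, 3 pools per age, adjusted p = 0.0199, limma).

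Ctss, the cysteine protease that trims the invariant chain, went from 10.21, 10.36 and 10.12 in the reference, Cy/+ and Cy/Cy to 9.49, 9.5 and 9.46. Its change of -0.75 ± 0.07 was nearly the same in every pool, from -0.67 to -0.86 (adjusted p = 0.0195, limma). The second Ctss probe gave -0.61 ± 0.10.

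Cd14, the co-receptor for lipopolysaccharide, went from 10.07, 10.72 and 10.18 to 9.40, 9.97 and 9.56 in the order reference, Cy/+ and Cy/Cy. The groups did not overlap, although the 7-day Cy/+ level came within 0.1 of the 3-day reference. The change was -0.68 ± 0.07 (adjusted p = 0.0199, limma), and the second probe of Cd14 gave -0.49 ± 0.12 (adjusted p = 0.0557 over probes).

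C1qa, a chain of the complement starter C1q, went from 10.64, 10.90 and 10.49 to 10.22, 9.99 and 10. Its change was -0.61 ± 0.11 (adjusted p = 0.0356, limma), with the 3-day pools all above the 7-day pools. C1qb, its partner chain, went from 11.98, 12.13 and 11.64 to 11.58, 11.33 and 11.50, a change of -0.45 ± 0.13 that did not pass (adjusted p = 0.0876, limma).

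Cd68, a lysosomal scavenger protein, went from 9.78, 10.09 and 9.69 to 9.47, 9.29 and 9.26, a change of -0.52 ± 0.11 (adjusted p = 0.0461, limma). Cd163, the haemoglobin scavenger receptor, went from 6.94, 7.06 and 6.82 to 6.40, 6.26 and 6.34. Its signal was not well above background in any of these pools at 7 days. Its fall of 1.52-fold (-0.61 ± 0.09, adjusted p = 0.0258, limma) is thus against background readings. Its second probe, also dim, gave -0.17 ± 0.09.

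Cd74, the invariant chain of MHC class II, went from 12.53, 12.49 and 12.21 to 12.10, 11.99 and 11.96, a change of -0.39 ± 0.08 (adjusted p = 0.044, limma). Itgam, the alpha chain of complement receptor CR3, went from 6.87, 7.17 and 7.06 to 6.63, 6.77 and 6.60, a change of -0.37 ± 0.08 (adjusted p = 0.0453, limma). For both genes the groups did not overlap.

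Mrc1, the mannose receptor, had a change of -0.59 ± 0.15 on its brightest probe (adjusted p = 0.0649, limma) and of -0.43 ± 0.07 on a dimmer probe, which passed when adjusted over all probes (adjusted p = 0.0312, limma). Adgre1, the F4/80 antigen, had -0.30 ± 0.07 (adjusted p = 0.0505, limma), with pools from -0.28 to -0.33. Tyrobp, the ITAM adaptor DAP12, had -0.50 ± 0.16 on its bright probe and 0.08 ± 0.10 on a dim probe whose coordinates run the opposite way, and neither Tyrobp probe passed. Adgre1 did not pass over features either, but did when adjusted over all probes (adjusted p = 0.0496, limma).

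The members tied to lineage and to leukocytes in general did not pass. Csf1r had -0.13 ± 0.07 and its ligand Csf1 had -0.03 ± 0.10. The common leukocyte antigen Ptprc had 0.03 ± 0.09, with part of its readings at background. The actin bundler Lcp1 had 0.11 ± 0.08, while Laptm5, a lysosomal protein of leukocytes, had -0.34 ± 0.10. The sensors Tlr2 and Tlr4 had -0.26 ± 0.07 and 0.02 ± 0.09, and the fractalkine receptor Cx3cr1 had -0.13 ± 0.07 with part of its readings at background. All of these had adjusted p values above 0.05 in limma.

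Ccl2, the monocyte chemoattractant, had the largest mean change among members not called, -0.85 ± 0.32 (adjusted p = 0.145, limma). Its pools differed: the reference was 7.98 and 8.04 at 3 and 7 days, Cy/+ went from 10.22 to 8.40, and Cy/Cy from 9.18 to 8.40. The reference level was alike at both ages while both mutant pools were lower at 7 days.

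**Figure D1:**
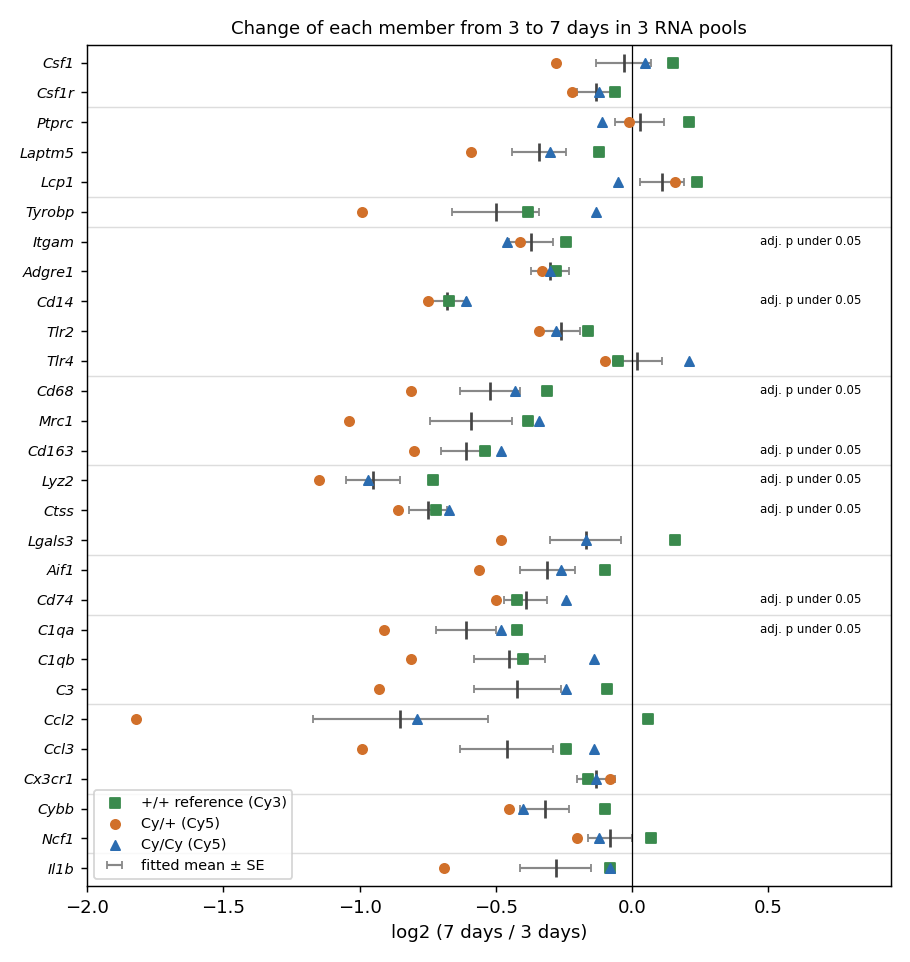
Log2 change from 3 to 7 days of the 28 members (rows, grouped by role) in the +/+ reference (squares), Cy/+ (circles) and Cy/Cy (triangles) pools, with the fitted mean (vertical tick) and its SE (bar). The 8 genes marked as passing lie left of 0 in every pool. The members' median is -0.16 in the reference, -0.58 in Cy/+ and -0.25 in Cy/Cy, against 0.01 for all features in each pool.

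By pool, 22 of 28 members were lower at 7 days in the reference, 27 in Cy/+ and 26 in Cy/Cy, where 47.7% to 49.1% of all features were lower. The median change of the members was -0.16 in the reference, -0.58 in Cy/+ and -0.25 in Cy/Cy. In all 3 pools together 21 of 28 members were lower, against 24.3% of all features. In the Cy5 channel of the arrays labelled +/+, which was not part of the fit, 13 of 28 members were lower, against 49.3% of all features. The median change there was 0.01 for the members and for all features.

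Within the Cy3 reference alone, 14 of 28 members had all 3 values of 7 days below all 3 of 3 days and 0 had the reverse, against 17.4% and 19.3% of all features. None of the 28 reached 2-fold, the size chosen for this description. Over all features 0.305% rose and 0.24% fell by 2-fold without overlap. The reference members with the largest mean difference were Lyz2 (1.66-fold), Ctss (1.65-fold) and Cd14 (1.59-fold). The Cy3 values are 3 hybridisations per age of what the labels call a +/+ pool, so they were not tested.

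Other genes of the same pathways were read for the same change. All 4 MHC class II genes tested fell, led by RT1-Bb (-1.04 ± 0.10) and RT1-Da (-0.50 ± 0.11). In the interferon response list 7 of 15 fell and 0 rose, led by the immunoproteasome subunit Psmb8 (-0.66 ± 0.10) and the RNA sensor Oas1a (-0.58 ± 0.08). Of the other complement genes 6 of 23 fell and 0 rose, among them C2 (-0.64 ± 0.07) and C5ar1 (-0.63 ± 0.13). Of 25 other macrophage core genes 3 fell and 0 rose, led by Cd52 (-0.87 ± 0.11) and Itgb2 (-0.48 ± 0.08), the partner chain of Itgam. Among other chemokine genes 3 of 20 fell, led by Ccl19 (-1.06 ± 0.12) and Cx3cl1 (-0.57 ± 0.07), and Cxcr4 rose (0.34 ± 0.07). Other lists had no or few falling genes. None of 8 genes of Fc receptor and ITAM signalling fell and Plcg2 rose (0.31 ± 0.07), none of 8 other NADPH oxidase genes fell and Rac1 rose (0.50 ± 0.09), and 0 of 11 other cytokine genes were called. Of 15 toll-like receptor and NF-kB genes Tlr9 fell (-0.42 ± 0.07) and 0 rose. These are counts over lists named with earlier results of these data known.

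Markers of other cells moved as follows in the same fit. Of 6 erythroid genes 3 fell, led by Alas2 (-0.86 ± 0.07). The summed erythroid log2 level in the Cy3 of the Cy/+ and Cy/Cy arrays was 14.87 and 14.89 at 3 days. At 7 days it was lower, 14.29 and 14.27 in the same order. Of 17 T and NK cell genes and of 5 B cell genes, 0 were called. Of 14 neutrophil genes 0 fell and Mmp9 rose (0.37 ± 0.07), and of 10 endothelial genes 3 rose and 0 fell. The part of other cell types in the members' change was not tested.

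The Cy/+ and Cy/Cy pools were each compared with the +/+ reference of their age through the log2 ratio of Cy5 to Cy3. In Cy/+, 3 of 28 members were higher than the reference and 0 lower (limma on the 4 mutant arrays, adjusted p under 0.05). Over all features 7.2% were called, 4.08% higher and 3.12% lower. The members' median log2 ratio was 0.12, against 0 for all features, and 22 of 28 lay above 0 (49.9% of all features did). The count rests on few arrays: it was 0 without the 3-day Cy/+ array, 8 without the 7-day Cy/+ array, and 1 without either Cy/Cy array. It was also 0 with the software's processed signals and with all 6 arrays in the fit, and 18 with median centring, which moved the median of all features to 0.18.

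Cd14 had ratios of 0.53 at 3 days and 0.52 at 7 days in Cy/+, and of 0.16 and 0.14 in Cy/Cy. Its Cy/+ ratios lay above both Cy/Cy ratios, with a Cy/+ mean of 0.52 ± 0.07 (SE, n = 2 arrays, adjusted p = 0.0179, limma). The second Cd14 probe differed between the ages, with 0.79 and 0.22 in Cy/+ and 0.05 and 0.07 in Cy/Cy.

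C3, the central complement component, had ratios of 0.96 and 0.32 in Cy/+ at 3 and 7 days and of 0.22 and 0.20 in Cy/Cy. Its Cy/+ mean was 0.64 ± 0.14 (n = 2 arrays, adjusted p = 0.0483, limma). Lyz2 had ratios of 0.63 and 0.31 in Cy/+ and of 0.07 and 0.00 in Cy/Cy, with a Cy/+ mean of 0.47 ± 0.10 (n = 2 arrays, adjusted p = 0.0404, limma). For both genes the 3-day Cy/+ array was highest.

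Ccl2 had the largest mean ratio in Cy/+ without passing, 1.24 ± 0.40 (n = 2 arrays, adjusted p = 0.107, limma). With age as a block it passed (adjusted p = 0.00845), and over all alternatives its adjusted p ranged from 0.00179 to 0.546. Its ratios were 2.18 at 3 days and 0.31 at 7 days in Cy/+, and 1.14 and 0.34 in Cy/Cy. The chemokine Ccl3 had 0.80 and 0.11 in Cy/+, and the inflammatory cytokine Il1b 0.59 and 0.07, so for these 3 genes the 3-day Cy/+ array stood above the other mutant arrays. A test of the mutant ratio between ages, added after the data were seen, gave -1.34 ± 0.23 for Ccl2 (7 minus 3 days, adjusted p = 0.17, limma), and 0 of 28 members passed it, against 0.0572% of all features.

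On the 3-day Cy/+ array 24 of 28 members lay above 0, against 49.3% of all features, with a median of 0.30. On the 7-day Cy/+ array 11 of 28 did, against 50.7%, with a median of -0.02. The ratios of the 3-day Cy/+ array correlated over all features with those of the arrays labelled +/+ at r = 0.28 and 0.254, those of the 3-day Cy/Cy array at 0.174 and 0.073, those of the 7-day Cy/+ array at 0.018 and 0.031, and those of the 7-day Cy/Cy array at 0.002 and 0.012. These correlations are across features of arrays that share a slide or a reference, and are descriptions. The part of the material in the arrays labelled +/+ in the 3-day Cy/+ ratios was not tested.

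Other lists in Cy/+ moved in both directions. Of 10 liver genes, the list that was high on the arrays labelled +/+, 3 were higher and 0 lower, Tf (0.98 ± 0.10), Fgb (0.64 ± 0.07) and Fgg (0.42 ± 0.09), while 0 of 7 skeletal muscle genes were called. Of 12 kidney tubule genes 4 were higher, led by Kap (0.94 ± 0.14) and Lrp2 (0.87 ± 0.14), and Slc12a1 was lower (-0.71 ± 0.13). Of 6 podocyte genes 2 were lower, Ptpro (-0.65 ± 0.14) and Nphs1 (-0.58 ± 0.10). Of 25 other macrophage core genes 3 were higher, Cd48 (0.82 ± 0.07), Itgb2 (0.53 ± 0.08) and Gpnmb (0.46 ± 0.09), and Cd52 was lower (-0.47 ± 0.10). The complement inhibitor Cfi was higher (1.2 ± 0.16), the 1 of 23 other complement genes called, and among chemokines Ccl20 was higher (1.04 ± 0.13) and Cxcl12 lower (-0.47 ± 0.09). Of 11 other cytokine genes 2 were higher, Casp1 (0.40 ± 0.08) and Il1r2 (0.38 ± 0.08). Of 15 interferon response genes 2 were higher, Psmb8 (0.40 ± 0.08) and Ifit2 (0.39 ± 0.08), and Rsad2 was lower (-0.59 ± 0.09). Of 6 erythroid genes 4 were lower, led by Hbb (-1.36 ± 0.13) and Slc4a1 (-1.01 ± 0.12). Of 14 neutrophil genes 2 were lower, RatNP-3b (-1.15 ± 0.16) and Mmp9 (-0.56 ± 0.08). The summed neutrophil level ranged from 11.55 to 12.11 in Cy/+ Cy5 and from 11.74 to 11.84 in the reference of the mutant arrays, and the part of these other lists in the members' ratios was not tested.

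In Cy/Cy, 0 of 28 members passed, against 0.00762% of all features (2 features in limma, with 2280 at an unadjusted p under 0.05). The members' median ratio was -0.06, and 10 of 28 lay above 0, against 51% of all features. The largest ratios were those of Ccl2 (0.74 ± 0.40, adjusted p = 0.635), C3 (0.21 ± 0.14, adjusted p = 0.688) and Cd74 (-0.18 ± 0.07, adjusted p = 0.554), all from limma with n = 2 arrays. Cd74 was at -0.23 and -0.14 in Cy/Cy and at -0.11 and -0.15 in Cy/+, below 0 on all 4 mutant arrays, although median centring in place of loess turned its Cy/Cy mean to 0.26 and brought the count of members called in Cy/Cy to 9.

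Between Cy/Cy and Cy/+, 0 of 28 members passed, and 0% of all features did (1566 at an unadjusted p under 0.05, limma). The Cy/Cy minus Cy/+ difference lay above 0 for 1 of 28 members, against 50.6% of all features, with a median of -0.19, against 0 for all features. The largest differences were those of Ccl2 (-0.50 ± 0.57), Lyz2 (-0.44) and C3 (-0.43). Leaving out the 3-day Cy/+ array brought the median to -0.04 and turned Ccl2 to 0.43. The 2 genotypes share the reference.

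**Figure D2:**
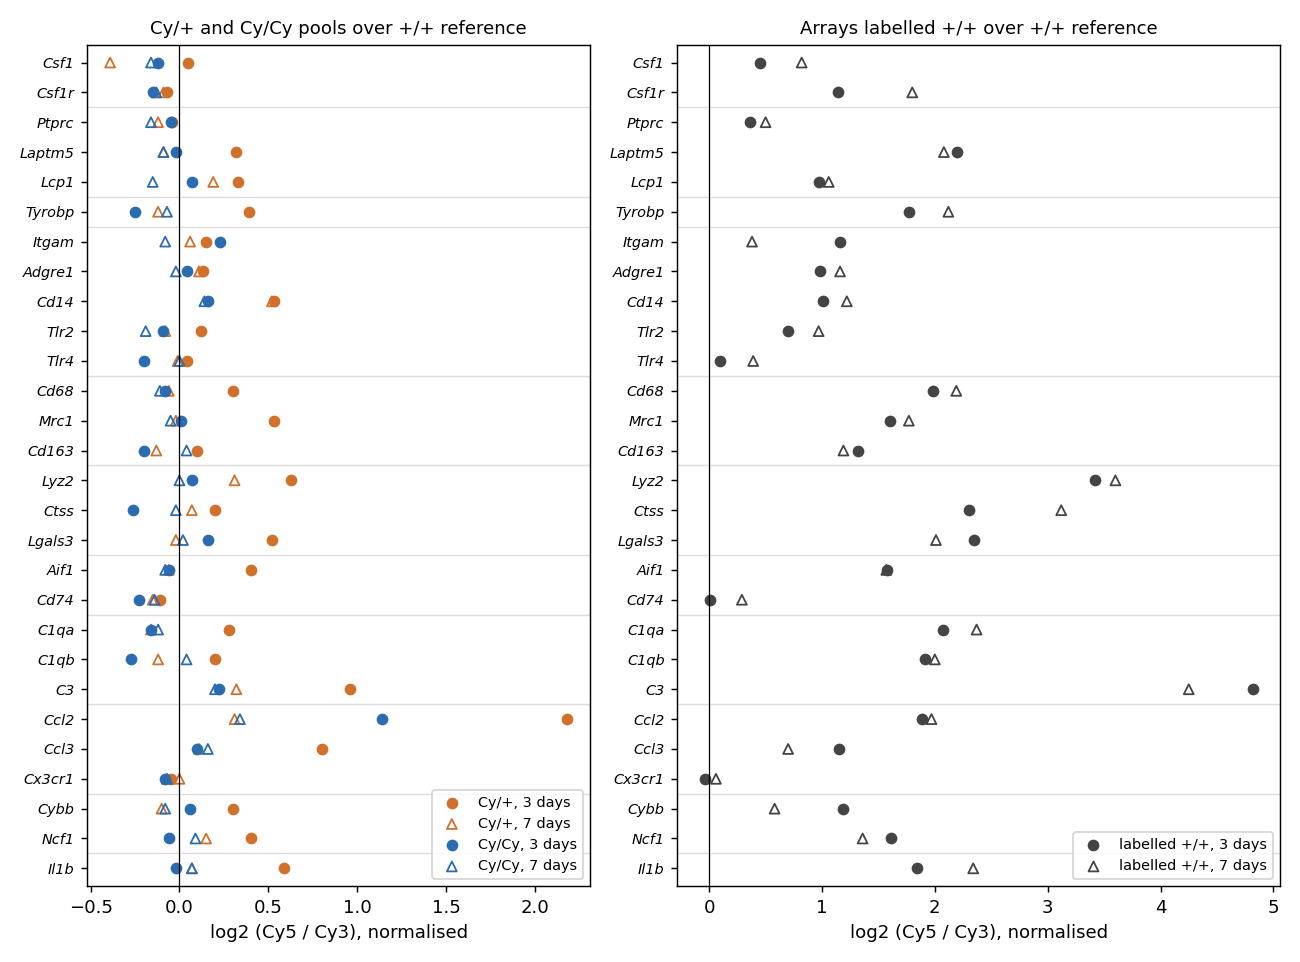
Log2 ratio of Cy5 to Cy3 for the 28 members (rows, grouped by role) on each array, with 3-day arrays as filled circles and 7-day arrays as open triangles. In the left panel Ccl2 on the 3-day Cy/+ array (2.18) lies farthest right, and in the right panel, whose scale is wider, C3 (4.82 and 4.25) and Lyz2 (3.42 and 3.60) do.

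On the arrays labelled +/+, 25 of 28 members were higher in Cy5 than in the Cy3 reference and 0 were lower (limma over all 6 arrays). Over all features 45.8% were called, 27.1% higher and 18.7% lower. The members' median ratio was 1.48, against 0.02 for all features. The 3 members not called were Cd74 (0.15 ± 0.10), Tlr4 (0.24 ± 0.11) and Cx3cr1 (0.01 ± 0.08). By the labels both channels of these arrays hold +/+ RNA, so no genotype was compared. The ratios stand beside the lower kidney and higher liver and muscle transcripts given above.

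C3 and Lyz2 had the largest ratios. C3 was at 4.82 and 4.25 on the 3-day and 7-day arrays, a mean of 4.53 ± 0.19 (n = 2 arrays, adjusted p = 1.76e-05, limma). Lyz2 was at 3.42 and 3.60, a mean of 3.51 ± 0.11 (adjusted p = 6.64e-06, limma). On all mutant arrays the ratios of both were below 1.

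The other lysosomal and scavenger members ranged widely. Ctss was at 2.30 and 3.12 and Lgals3, a galactose-binding lectin, at 2.35 and 2.01. Cd68 was at 1.98 and 2.19, Mrc1 at 1.60 and 1.77, and Cd163 at 1.32 at 3 days. At 7 days the Cy3 signal of Cd163 was not well above background, so its ratio of 1.19 there is against a background reading. The second probes of these genes read lower, Ctss at 1.98 and 2.98, Mrc1 at 1.03 and 0.90 and Cd163, also dim, at 0.86 and 0.56.

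The C1q chains were close to each other, C1qa at 2.07 and 2.37 and C1qb at 1.91 and 2. Laptm5 was at 2.20 and 2.08, Tyrobp at 1.77 and 2.12, Aif1, a calcium-binding protein of macrophages, at 1.58 and 1.57, and Lcp1 at 0.97 and 1.06. The dim Tyrobp probe was lower, at 0.60 and 1.07, and the second C1qa probe was higher than the first, at 2.24 and 2.57. Ptprc was called at 0.36 and 0.50, but its Cy3 signal was not well above background on the 3-day array, so 0.36 is against a background reading.

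Of the chemokines and cytokine, Ccl2 was at 1.89 and 1.97, Ccl3 at 1.15 and 0.70 and Il1b at 1.84 and 2.34. The second Il1b probe was at 1.48 and 1.76. For Ccl2 the Cy5 level on these arrays (9.76 and 9.95) was below that of the 3-day Cy/+ pool (10.22). The oxidase subunits Ncf1 and Cybb, which make superoxide in phagocytes, were at 1.61 and 1.36 and at 1.19 and 0.58.

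Among the receptors, Csf1r was at 1.14 and 1.80 and its ligand Csf1 at 0.45 and 0.82. Cd14 was at 1.01 and 1.22, Adgre1 at 0.98 and 1.16, Tlr2 at 0.70 and 0.97, and Itgam at 1.16 and 0.38. C3, Itgam, Cybb and Ccl3 were higher on the 3-day array, and Csf1r, Ctss and Il1b on the 7-day array, by 0.4 or more.

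Most transcripts of other blood cells on these lists were higher as well. In the same comparison 14 of 14 neutrophil genes were higher (median 2.88, with RatNP-3b and Camp at 4.77), as were 16 of 17 T and NK cell genes (median 1.15, led by Cd3g at 4.52) and 7 of 9 mast cell genes (median 2.19, led by Cpa3 at 4.41), while Kit was lower (-0.44). Of 5 B cell genes 4 were higher and Blnk was lower (-1.51), and the summed B cell level was lower in Cy5 (9.72 to 10.08) than in Cy3 (10.55 to 10.65). Erythroid genes were higher in 6 of 6 cases (median 2.18). Of 25 other macrophage core genes 18 were higher and 2 lower (median 1.32), led by Coro1a (2.57) and Gpnmb (2.29), with Ctsc (-0.59) and Grn (-0.55) the lower ones. Of 23 other complement genes 18 were higher and 2 lower (median 1.29), led by Cfi (6.08) and Cfd (5.31). Of the toll-like receptor and NF-kB genes, 2 of 15 were higher and 2 lower (median 0.11), with Lbp at 2.49 and Tlr3 at -2.56.

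**Figure D3:**
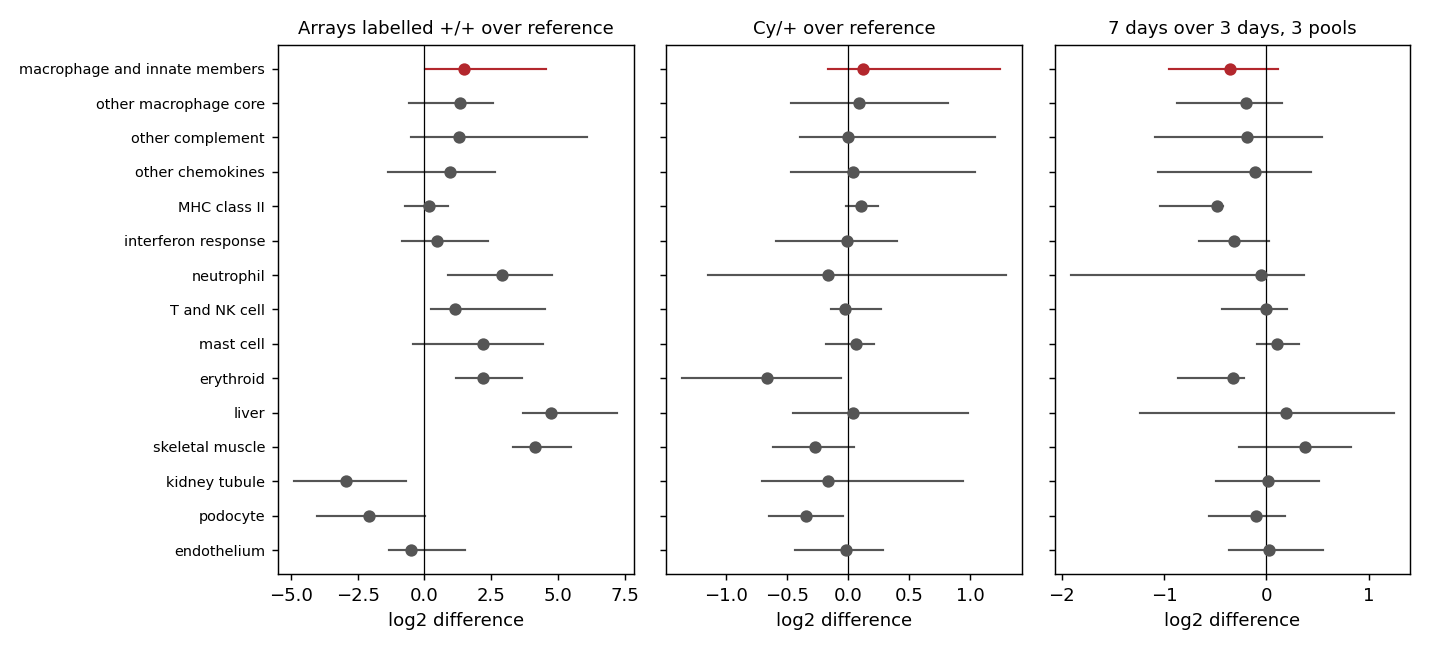
Median (point) and range from the lowest to the highest gene (line) of the log2 difference in the members (top row) and 14 other gene lists, for the arrays labelled +/+ over reference, Cy/+ over reference, and 7 over 3 days. The members' medians are 1.48, 0.12 and -0.35, and the panels have different scales.

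C3 differed in the Cy3 channel as well. Its Cy3 level was 11.68 and 11.90 on the 3-day and 7-day arrays labelled +/+, and 8.30, 8.19, 8 and 7.98 on the mutant arrays. The same nominal +/+ reference therefore read 10.8-fold and 15-fold higher for C3 on the arrays labelled +/+ than on the mutant arrays of its age. Over all features 227 (0.866%) were at least 2-fold higher in Cy3 on both arrays labelled +/+ and 10 were lower. Of the 227, 224 were also at least 2-fold higher in Cy5 than in Cy3 there. C3 was the only member among them, and the Cy3 gaps of the other members lay between -0.41 and 0.37. Because of this the reference level of C3 in the comparison of ages, 9.39 and 9.29, lies above the Cy3 of every mutant array. With the reference taken from the mutant arrays only, 9 members were lower at 7 days, the 8 above among them.

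**Figure D4:**
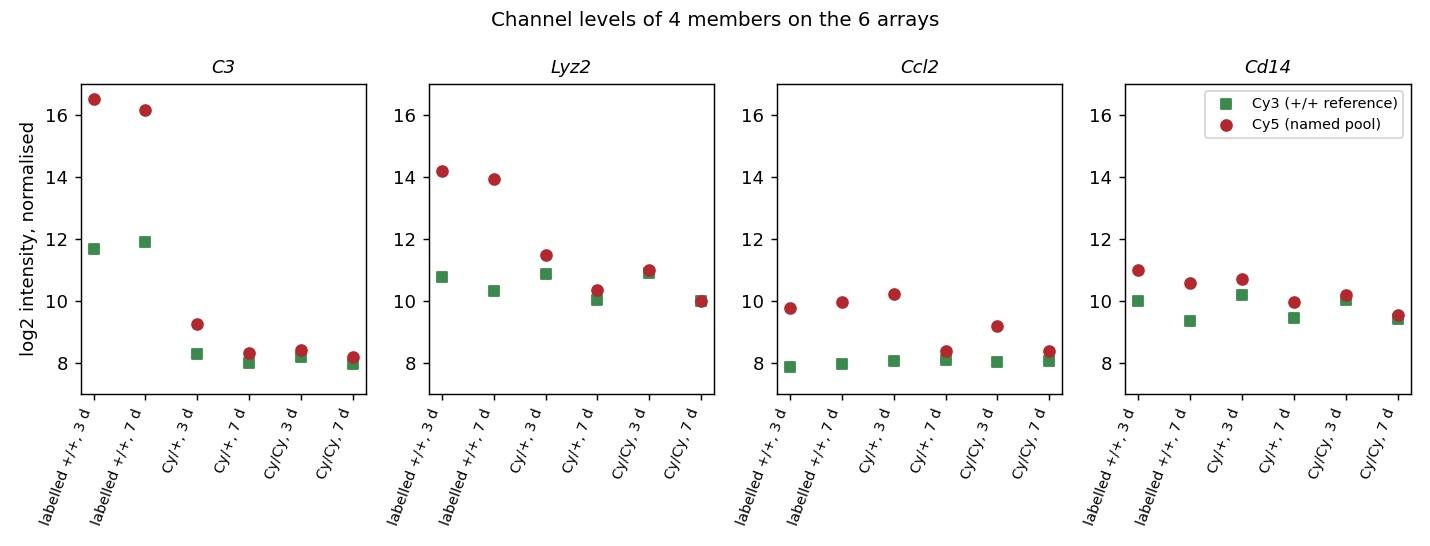
Normalised log2 level of C3, Lyz2, Ccl2 and Cd14 in Cy3 (squares, +/+ reference) and Cy5 (circles, named pool) on each of the 6 arrays. C3 is the gene whose squares on the arrays labelled +/+ (11.68 and 11.90) stand apart from the others (7.98 to 8.30), while the Ccl2 squares lie between 7.86 and 8.09 on all arrays.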

How the data were processed

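Per the file headers, the deposited scans came from Agilent Feature Extraction 9.5.1.1, with probe coordinates of build rn3. The submitters' processing notes name this software without a version, and the series' design text gives an earlier version and a different array product. The headers were taken as right. The deposited intensity values are raw spot means with local backgrounds, and signals already corrected and dye-normalised by that software. A deposited log10 ratio (Cy5 over Cy3 after that correction) is the same in the authors' series table.

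The analysis used limma 3.58.1 under R 4.3.3, with the data.table package at version 1.17.8. Raw signals were corrected by normexp (offset 50), then normalised within arrays by loess with control and flagged spots at weight 0, and averaged per probe. The dim-probe filter asked for the software's above-background flag on 2 arrays or more, in Cy3 or Cy5, and left 30934 of 41012 probes. The brightest probe stood for a gene. Log2 ratios were fitted by lmFit and eBayes with Benjamini-Hochberg adjustment over all features. For ages, channels were also scaled by Aquantile, and pool was a block. The pairing of arrays by age comes from the labels, and deviations of same-age mutant arrays correlated at 0.246. A fold against a gene at background sets the bright mean over the dim mean, raised on each array to its lowest flagged signal where the gene lay under that.

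Values were given by array for members called in any test and for the 3 largest ratios of each comparison, and of each other list the 2 genes with the largest change, or all called ones where few. Members, lists and rules were chosen with earlier results of these data known. The tests were tried on simulated data. The alternatives were other signals, centring, filters, blocks and left-out arrays. The software's p-values per spot were not used.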

Additional observations from a re-analysis of the deposited data

How the results depend on the processing

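The count of members above the reference on the arrays labelled +/+ (25) stayed between 21 and 26 under every alternative run. In Cy/+ the count of 3 became 0 with the software's processed signals, 0 with all 6 arrays in the fit and 18 with median centring in place of loess, which moved the median of all features to 0.18 and that of the members to 0.45. It ranged from 0 to 8 when single arrays were left out, and was 4 with age as a replicate block, which added Ccl2. In Cy/Cy the count of 0 became 9 with median centring, where Cd74 turned to 0.26. Between Cy/Cy and Cy/+ it stayed at 0, and leaving out single arrays moved Ccl2 from -1.43 to 0.43. With age, the count of 8 became 0 with processed signals, 5 without the filter on dim probes, 3 with no replicate block and 0 from the Cy5 of the mutant pools alone, and leaving out single arrays gave 0 to 9. In the Cy3 description the count of 0 became 2 with quantile-normalised processed signals and 3 at 1.5-fold. Fewer samples enter the fits on the mutant pools alone and with arrays left out; for the other settings the cause was not tested. Among all calls the share that was higher was 56.6% in Cy/+ (79.8% with median centring, 90.9% of 11 with processed signals) and 59.2% on the arrays labelled +/+ (75.2% and 38.7%). Calls over all features in Cy/+ numbered 1888, and 11, 13043, 4050 and 12 with processed signals, median centring, the replicate block and all arrays (518 to 2285 with arrays left out). In Cy/Cy they numbered 2, and 11391 with median centring, 14 with the block and 0 to 19 with arrays left out, and between the genotypes 0, 9 with median centring and 0 to 163. On the arrays labelled +/+ they numbered 12005, and 5325 from those arrays alone. With age they numbered 2030, and 0 with processed signals, 443 with no replicate block, 0 from the mutant pools alone and 77 to 4944 with arrays left out. Signal over background limits Cd163, Ptprc and Cx3cr1, which were above background in 7, 8 and 9 of 12 channel readings, while the other 25 members were above it in all 12.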
